A study of Mus musculus with 6 samples.

Results

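Pbrm1 lies on mouse chromosome 14, and the regions described here are the stretches of open chromatin around it in oviductal smooth muscle. ATAC-Seq maps such stretches by letting the Tn5 transposase insert sequencing adapters where DNA is not wrapped tightly. The lists of reproducible peaks of WT and Pbrm1 cKO cells were merged into 66679 regions, and the 980 regions of chromosome 14 whose midpoint was within 20 Mb of the Pbrm1 gene start (chr14:31019138, GRCm38) were kept. Another 1509 regions lay elsewhere on the chromosome. Within the merged set the regions were chosen by position, and the set itself came from peak lists of these same libraries.

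The study profiled primary smooth muscle cells from the oviducts of mice on day 2 of pregnancy, aged 8 to 12 weeks, in 3 WT and 3 Pbrm1 cKO libraries. The study describes the knockout mice as Pbrm1 fl/fl with PR-IRES-cre, in which Cre is driven from the progesterone receptor gene, so deletion is limited to cells that have expressed that receptor. The labels call the controls WT, whereas the study describes control littermates as Pbrm1 fl/fl, and the peak lists do not show which allele the cells carried. Nothing in the labels says whether animals were pooled, and p-values measure the spread between these libraries. The comparison asks where loss of Pbrm1 changed accessibility.

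PBRM1, or BAF180, is the polybromo subunit of PBAF, a SWI/SNF complex that uses ATP to slide and evict nucleosomes. Its bromodomains bind acetylated histones and help to place the complex on promoters and enhancers. Smooth muscle of the oviduct contracts to move the embryo toward the uterus, under the control of calcium entry, prostaglandins and ovarian hormones, and several genes of these systems lie near Pbrm1.

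Each peak entry carries the fold of its summit over background and a -log10 p from the peak caller, and together they give the number of sequence tags at the summit. Within a library, regions were ordered by the highest -log10 p among the entries that overlap them, and the rank score is log2(number of regions / rank), so that a difference of 1 means the rank number was halved. A difference is always Pbrm1 cKO minus WT on this log2 scale. It shows standing among the regions of a library and not an absolute amount of accessibility. The nearest region inside the lower edge was 19.9 Mb from Pbrm1, at the pseudogene Slc25a5-ps, with a difference of -0.44, and the nearest outside was 20.6 Mb away, at Fhit, with -0.29. At the upper edge the regions on either side of the limit, at Rnase10 and Rnase9, had differences of -0.07 and 0.16.

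The windows below are 151 bases around the summit of the pooled peak, on the plus strand of GRCm38, 5' to 3'. They are the 4 regions that passed the test in the comparison of genotypes, and 3 that did not but stand for the gene bodies and the prostaglandin receptor locus discussed later. Capitals mark matches on either strand to 6 motifs, namely AP-1, GC box, E-box, M-CAT, GATA and CArG box, whose letters are given after the windows. The searched motifs do not overlap in these windows.

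Ccser2 intron, chr14:36911215-36911365: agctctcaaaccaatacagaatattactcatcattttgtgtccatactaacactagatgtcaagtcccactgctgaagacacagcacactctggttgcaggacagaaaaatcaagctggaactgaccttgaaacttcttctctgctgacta
Opn4 exon, chr14:34595898-34596048: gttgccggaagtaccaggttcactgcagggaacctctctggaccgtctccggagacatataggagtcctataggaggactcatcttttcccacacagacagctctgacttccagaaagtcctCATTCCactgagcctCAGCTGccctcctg
Bmpr1a intron, chr14:34440584-34440734: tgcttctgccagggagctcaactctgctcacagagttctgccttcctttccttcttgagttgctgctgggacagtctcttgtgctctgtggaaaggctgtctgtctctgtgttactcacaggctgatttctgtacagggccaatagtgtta
Klhl33 intergenic, chr14:50904016-50904166: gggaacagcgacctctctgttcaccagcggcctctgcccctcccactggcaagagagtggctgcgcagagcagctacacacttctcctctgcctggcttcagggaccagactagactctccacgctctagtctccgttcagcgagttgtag
Zmiz1 intron, chr14:25640499-25640649: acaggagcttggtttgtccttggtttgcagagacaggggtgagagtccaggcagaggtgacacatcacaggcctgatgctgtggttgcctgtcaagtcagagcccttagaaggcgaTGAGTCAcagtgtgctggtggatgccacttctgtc
Rarb intron, chr14:16738729-16738879: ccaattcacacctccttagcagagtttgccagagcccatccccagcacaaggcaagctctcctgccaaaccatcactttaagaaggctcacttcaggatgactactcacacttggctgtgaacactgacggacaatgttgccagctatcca
Near Ptgdr, chr14:44865856-44866006: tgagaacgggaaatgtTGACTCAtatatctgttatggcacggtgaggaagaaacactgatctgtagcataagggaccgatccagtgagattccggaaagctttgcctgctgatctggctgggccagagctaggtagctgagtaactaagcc

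Of the 4 windows that passed the test, only that of Opn4 held a searched motif, namely 1 M-CAT and 1 E-box match. The Zmiz1 window and the window near Ptgdr each held 1 AP-1 match. The letters searched for AP-1 were TGACTCA, and they were found in 272 of the 980 regions (27.8%), against 25.6% of all 66679. For the GC box (GGGCGG) the shares were 15.1% of the regions and 16.7% of all. For the E-box (CAGCTG), which basic helix-loop-helix factors bind, they were 11.1% and 11.6%. For M-CAT (CATTCC), the motif of TEAD factors, they were 12.3% and 12.5%. For the binding motif of GATA factors, with the letters AGATAA on 1 strand, they were 5.10% and 5.95%. The CArG box, the site of serum response factor in smooth muscle genes, was in 14 regions (1.43%) against 0.87% of all. These counts describe letters in a window and do not show that a factor was bound.

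The regions around Pbrm1 were mostly within genes. Introns held 408 (41.6%), promoters within 1 kb of a transcription start 282 (28.8%), intergenic sequence 238 (24.3%) and other exons 52 (5.31%). Over all regions, introns held 33.7% and promoters 32.3%. The list of WT peaks alone contributed 166 regions (16.9%, against 13.4% of all), the cKO list alone 176 (18.0%, against 17.4%), and both lists shared 638. Median GC content was 49.4% and median width 482 bases, against 50.3% and 481 bases over all regions. The median tag number at a summit was 26, 23 and 14 in WT libraries 1, 2 and 3, and 28, 24 and 26 in cKO libraries 1, 2 and 3. WT library 3 was therefore the least deep, and it had an entry at 933 of the 980 regions, against 967 to 975 in the other 5 libraries. The strongest regions by mean rank were the promoters of Nkiras1, Ap3m1, Nr1d2, Pnp and Hacl1. Among them, the groups did not overlap at Hacl1, a gene for a peroxisomal lyase, where the difference was -1.47 (SE 0.80) and did not pass the test (limma adjusted p = 0.381). Promoter regions were present for 7 of 8 smooth muscle markers, 1 of 7 epithelial markers (Foxj1, of ciliated cells), 2 of 3 immune, 3 of 3 endothelial and 3 of 3 fibroblast markers. By median WT rank, Foxj1 (4230) stood above every smooth muscle marker, of which Smtn (7913.5) was the strongest. The endothelial marker Kdr (13213) stood above all the smooth muscle markers except Smtn. None of these marker regions passed the test, and the smallest adjusted p was 0.409, at Cnn1. The difference was negative at 6 of the 7 smooth muscle markers, from -0.50 at Smtn to 0.16 at Acta2, and at 2 of the 3 endothelial markers. It was positive at all 3 fibroblast markers, Pdgfra, Col1a1 and Dcn, from 0.041 to 0.29, and 0.25 at Foxj1. The part of cell types in the results below was not tested.

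At 4 regions around Pbrm1 the difference between genotypes passed the test. Higher in Pbrm1 cKO cells were an intronic region of Ccser2, an exonic region of Opn4 and an intronic region of Bmpr1a, and lower was an intergenic region near Klhl33. Only the Ccser2 region was on both peak lists. Those of Opn4 and Bmpr1a were on the cKO list alone and that near Klhl33 on the WT list alone, so these 3 entered the set only through the genotype in which they were high, and their p-values are not independent of the lists. By limma with Benjamini-Hochberg adjustment over all 66679 regions, 4 of 980 (0.408%) passed an adjusted p of 0.05, against 0.0675% of all regions, and the rest of chromosome 14 had 5 of 1509 (0.331%). In the higher direction the background was 0.039%, and in the lower direction 0.0285%. The median difference of the 980 regions was 0.00074, against 0.00055 over all. An unadjusted p under 0.05 was given to 201 of them (20.5%), against 15.9% of all. On normal scores in place of log2 ranks, 47 of the 980 (4.80%) passed, 16 higher and 31 lower, against 2.33% of all (0.993% higher and 1.33% lower), so the split between directions depended on the scale. Of these, 25 of the lower were on the WT list alone and 9 of the higher on the cKO list alone. They entered the set only through the genotype in which they were high. Among regions on both lists, 13 of 638 (2.04%) passed on normal scores, against 0.722% of all such regions. Without any 1 library the log2 test passed only the Ccser2 region, and with normal scores between 8 (without cKO library 1) and 49 (without WT library 3) regions passed.

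**Figure D1:**
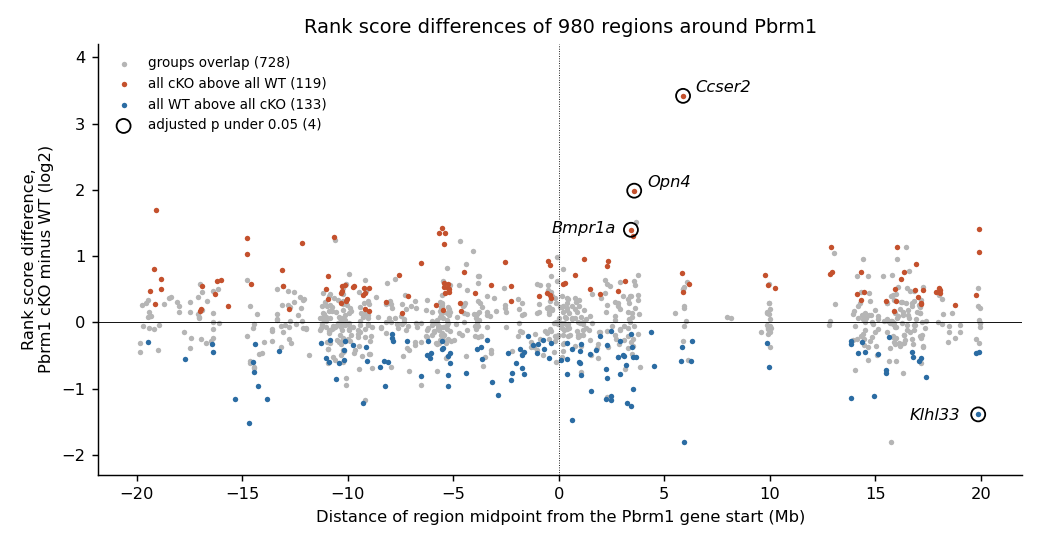
Rank score difference (Pbrm1 cKO minus WT, log2) of each of the 980 regions against the distance of its midpoint from the Pbrm1 gene start in Mb. Red points are the 119 regions with all 3 cKO libraries above all 3 WT libraries, blue the 133 with the reverse, grey the others, and circles the 4 regions that passed the test, of which 3 lie between 3.42 and 5.89 Mb from Pbrm1.

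The largest difference was inside Ccser2, which encodes a coiled-coil serine-rich protein. The region (chr14:36911083-36912104) lies in an intron, 1902 bp from the nearest transcription start and 5.89 Mb from Pbrm1. Its rank score was 0.56, 0.24 and 1.09 in the WT libraries and 4.06, 4.58 and 3.50 in the cKO libraries, so every cKO value exceeded every WT value by more than the spread within either genotype. The summits held 17, 12 and 14 tags in WT and 109, 108 and 88 tags in cKO cells. Peak fold over background was 7.58, 6.17 and 6.52 in WT and 16.5, 16.9 and 14.6 in cKO libraries. The difference was 3.42 (SE 0.37, n = 3 each, limma adjusted p = 0.00103). The region no longer passed when regions were ranked by fold, where the difference was 2.33 (SE 0.42, limma adjusted p = 0.109). Without the variance trend the difference was the same, 3.42 (SE 0.34), and its limma adjusted p was 0.0906. Ccser2 had 10 regions in all, and its strongest promoter region (chr14:36968104-36969322), 56.0 kb away, stood in the opposite order. That promoter scored 6.13, 6.14 and 6.91 in WT and 3.87, 5.46 and 4.44 in cKO libraries, a difference of -1.80 (SE 0.59) that did not pass the test (limma adjusted p = 0.154). Its groups did not overlap.

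Opn4 encodes melanopsin, the photopigment of light-sensing retinal ganglion cells. The Opn4 region (chr14:34595529-34596165) overlaps an exon 3690 bp from a transcription start. It was on the cKO list alone. No WT library had an entry there, and the cKO summits held 42, 46 and 36 tags. The rank scores were 0.0077, 0.0073 and 0.034 in WT libraries, the values given to regions with no entry, and 1.84, 2.37 and 1.80 in cKO libraries. The difference was 1.99 (SE 0.30, limma adjusted p = 0.0165), and since no WT value was measured it depends on the rank given to an absent entry. Without 1 library the adjusted p ran from 0.0539 to 0.123, and on normal scores all 6 such fits passed. The other 2 regions nearest to Opn4, both intergenic, had differences of 0.57 (SE 0.39) and 0.22 (SE 0.13) and overlapping groups.

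Bmpr1a, the type I receptor for bone morphogenetic proteins, held regions that stood in opposite orders. The intronic region (chr14:34440244-34440924), which was on the cKO list alone, scored 0.019, 0.088 and 0.072 in WT and 1.63, 1.20 and 1.53 in cKO libraries. Its summits held 6, 9 and 4 tags in WT and 38, 26 and 32 tags in cKO cells, and the difference was 1.40 (SE 0.25, limma adjusted p = 0.0452). The exonic region 6.77 kb away (chr14:34447697-34447984), on the WT list alone, scored 1.67, 1.21 and 1.26 in WT and 0.087, 0.11 and 0.15 in cKO libraries. The WT values were all above the cKO values, with a difference of -1.26 (SE 0.25) that did not pass the test (limma adjusted p = 0.0721). At the Bmpr1a promoter the difference was 0.14 (SE 0.39) and the groups overlapped. Of the 8 regions in the gene, groups did not overlap at 1 in the higher and 3 in the lower direction, against 10.6% and 10.9% of all regions. Without 1 library, the adjusted p of the intronic region ran from 0.0752 to 0.165, and on normal scores it passed in all 6 such fits.

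The lower region (chr14:50903915-50904540) was intergenic, 6408 bp from the nearest start, that of the kelch-like gene Klhl33, and 19.9 Mb from Pbrm1. It was on the WT list alone and scored 1.13, 1.50 and 1.56 in WT and 0.0043, 0.0050 and 0.015 in cKO libraries. The WT summits held 25, 28 and 18 tags, cKO library 3 had a summit of 5 tags, and the other 2 cKO libraries had no entry. The difference was -1.39 (SE 0.24, limma adjusted p = 0.0434). The adjusted p ran from 0.0511 to 0.21 when 1 library was left out, and on normal scores the region passed in all 6 such fits. The region at the Klhl33 promoter had a difference of 0.51 (SE 0.33) and overlapping groups. The lists that define the regions came from the same libraries, so the direction at a region found on 1 list alone is not independent of that list.

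Next in order of p came 7 regions higher and 9 regions lower in cKO cells, none of which passed the test on log2 ranks. All 20 regions, these and the 4 above, passed on normal scores, and at each of them the groups did not overlap. Only 4 of the 20, those at Ccser2, Gm48600, Zmiz1 and Gm49192, were on both peak lists. The others entered the set only through the genotype in which they were high, so neither result is independent of the lists. Among the higher ones, an intronic region of Ptprg, a receptor-type tyrosine phosphatase, was nearest to the start of the gene Gm48600 and scored 1.34, 0.49 and 1.19 in WT and 2.30, 2.68 and 3.13 in cKO libraries. A promoter region of Arhgap22, a GTPase-activating protein, scored 0.0077, 0.029 and 0.081 in WT and 1.02, 0.84 and 1.06 in cKO libraries. Its difference was 0.93 (SE 0.19, limma adjusted p = 0.0721), and WT library 1 had no entry there. The other higher regions lay in introns, nearest to the starts of Zmiz1, Erc2, Gm26660, Gm49087 and Gm15916 (the last within Ube2e2), with differences from 0.76 to 1.35.

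Among the lower regions, the intergenic region nearest to Gm47798 scored 1.12, 2.02 and 1.84 in WT and 0.011, 0.098 and 0.29 in cKO libraries, a difference of -1.52 (SE 0.30, limma adjusted p = 0.0721). A promoter region of Sh3bp5, which lies 0.398 Mb from Pbrm1 and encodes an exchange factor for Rab11, scored 0.63, 0.99 and 0.93 in WT and 0.013, 0.16 and 0.045 in cKO libraries. Its summits held 23, 25 and 14 tags in WT and 8, 14 and 9 tags in cKO cells. The others were at Gm3534, Rarb, Cacna2d3, Gm48312, Gm49192, the Bmpr1a exon described above and an exon within Lrmda (nearest start 4930405A10Rik), with differences from -1.26 to -0.67. None of the 20 regions had a near-identical copy elsewhere in the genome.

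**Figure D2:**
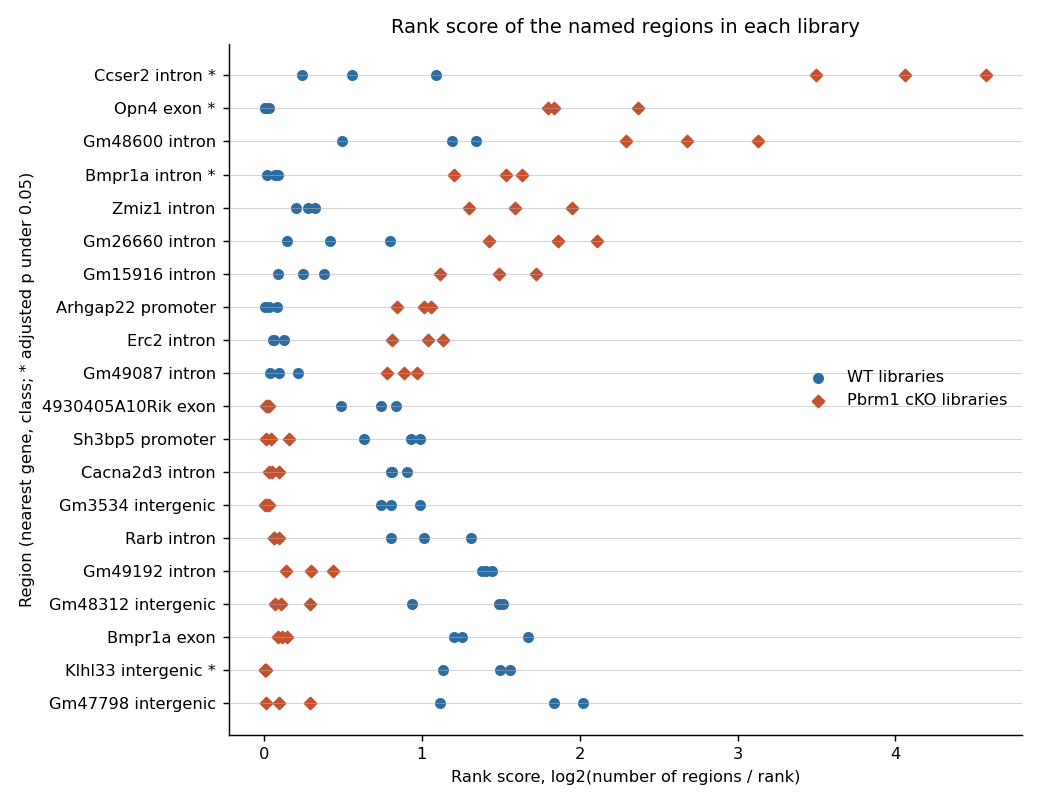
Rank score, log2(number of regions / rank), of the 20 regions with the smallest p in each direction, named by nearest gene and class. Each circle is 1 WT library and each diamond 1 Pbrm1 cKO library, the 4 regions with an adjusted p under 0.05 carry an asterisk, and the genotypes do not overlap in any of the 20.

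Across all members, all 3 cKO libraries were above all 3 WT libraries at 119 regions (12.1%) and below them at 133 (13.6%). Together these were 252 regions (25.7%), against 21.5% of all regions and 26.4% of the rest of chromosome 14. The background was 10.6% higher and 10.9% lower, and in the rest of the chromosome 15.2% were higher and 11.2% lower. Chromosome 14 as a whole had 26.2%, above the range of the other 19 chromosomes compared, which ran from 16.9% on X to 24.2% on chromosome 1. The share near Pbrm1 was thus not above that of the remainder of its chromosome. Among the regions on both lists it was 17.4%, against 16.3% over all such regions, and among those on the WT list alone it was 51.2% against 38.1%. Among those on the cKO list alone it was 31.8% against 29.2%. Without WT library 3 the share was 38.6%, against 34.4% of all regions. A region without an entry took a floor score that differed between libraries, such as 0.034 in WT library 3 and 0.0043 in cKO library 1. Absent entries alone could therefore separate the groups. Among the 911 regions with an entry in all 6 libraries, 102 were higher and 109 lower, or 23.2% against 19.8% of all such regions.

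By distance, the directions were uneven in some bins of 5 Mb and near even in others. Over all regions, 10.6% were higher and 10.9% lower. From the Pbrm1 start to 5 Mb beyond it, 37 of 175 regions were lower (21.1%) and 13 higher (7.43%) in all cKO libraries. From 5 Mb before it to the start, 24 of 146 were lower (16.4%) and 14 higher (9.59%). From 20 to 15 Mb before the gene, 5 of 61 were lower (8.20%) and 13 higher (21.3%). From 15 to 20 Mb beyond it, 12 of 146 were lower (8.22%) and 21 higher (14.4%). In the other bins, 18 were higher and 16 lower from 15 to 10 Mb before the gene, and 26 and 25 from 10 to 5 Mb before. Beyond it, 6 were higher and 7 lower from 5 to 10 Mb, and 8 and 7 from 10 to 15 Mb. The median difference was -0.06 from the start to 5 Mb beyond it and 0.16 from 20 to 15 Mb before it. From the start to 5 Mb beyond it, 35 of the 175 regions were on the WT list alone and 30 on the cKO list alone. From 20 to 15 Mb before it, these numbers were 6 and 13 of 61. Of all 980 regions, those on the WT list alone were lower in 51.2% and those on the cKO list alone higher in 31.8%. The counts by bin are therefore not independent of the lists. Whether the imbalance remains among regions on both lists was not tested. These are descriptions of neighbouring regions in the same 6 libraries, and no test was made between bins. Of 27 pairs of members less than 10 kb apart whose groups did not overlap, 15 (55.6%) had the same direction, against 60.1% of such pairs over all regions.

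**Figure D3:**
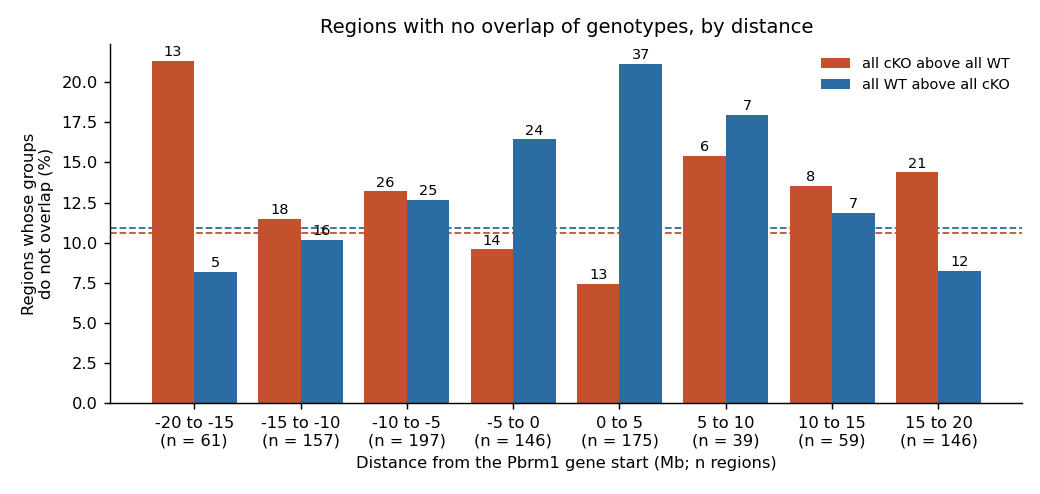
Share of regions (%) in bins of 5 Mb from the Pbrm1 gene start, with the number of regions in each bin under it, for which all cKO libraries were above all WT libraries (red) or the reverse (blue). Numbers on bars are region counts and dashed lines the shares over all 66679 regions, 10.6% and 10.9%. The largest imbalance toward lower regions is in the bin from 0 to 5 Mb, with 37 lower and 13 higher. Regions on 1 peak list alone are included, so the counts are not independent of the lists.

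At Pbrm1 itself the promoter region differed by less than the spread between libraries. The region (chr14:31018762-31019679) covers the divergent starts of Pbrm1 and Gnl3, which encodes nucleostemin. It scored 1.78, 2.66 and 1.80 in WT and 2.43, 2.43 and 1.59 in cKO libraries, with 46, 54 and 25 tags against 61, 56 and 43, and the groups overlapped. The means were 2.08 ± 0.50 in WT and 2.15 ± 0.49 in cKO libraries (SD, n = 3 each), a difference of 0.07 (SE 0.37, limma adjusted p = 0.955). An exact two-sided permutation test over the 6 libraries gave p = 1, where the smallest possible is 0.1. The only other region in the gene body, over an exon 69.6 kb from the start, differed by 0.23 (SE 0.36) with overlapping groups. Peak lists carry no reads over a deleted exon as such, so these values do not check the genotype.

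Genes that neighbour Pbrm1 were examined at 1 promoter region each, the one nearest to a transcription start of the gene. Of 27 protein-coding genes that start within 500 kb, 24 had a promoter region, in 20 distinct regions, and none passed the test on log2 ranks (the smallest adjusted p was 0.38), on normal scores, or at an unadjusted p of 0.05. Over all promoter regions, 0.0464% passed on log2 ranks, 1.50% passed on normal scores and 12.4% had an unadjusted p under 0.05. Groups did not overlap at 1 of the 20 in each direction, against 6.63% higher and 10.3% lower of all promoter regions. Differences ran from -0.54 to 0.98 with a median of 0.0014. The largest negative one was at Tkt, the pentose phosphate enzyme transketolase, which scored 3.53, 3.27 and 3.34 in WT and 2.65, 2.81 and 3.07 in cKO libraries, with no overlap. At Dnah1, an axonemal dynein, the scores were 1.13, 1.36 and 0.53 in WT and 1.53, 1.59 and 1.69 in cKO libraries, also with no overlap, in the other direction. Nek4, a NIMA-related kinase, had the largest positive difference, 0.98 (SE 0.62), and overlapping groups. The other Sh3bp5 promoter region, described above with WT values higher and without overlap, was not among the 20. It passed on normal scores (limma adjusted p = 0.0234) and not on log2 ranks (0.0906), whereas the Sh3bp5 region counted here had a difference of 0.35 (SE 0.38) and overlapping groups. At the promoter shared by Bap1, a histone H2A deubiquitinase, and Phf7 the difference was -0.31 (SE 0.38).

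**Figure D4:**
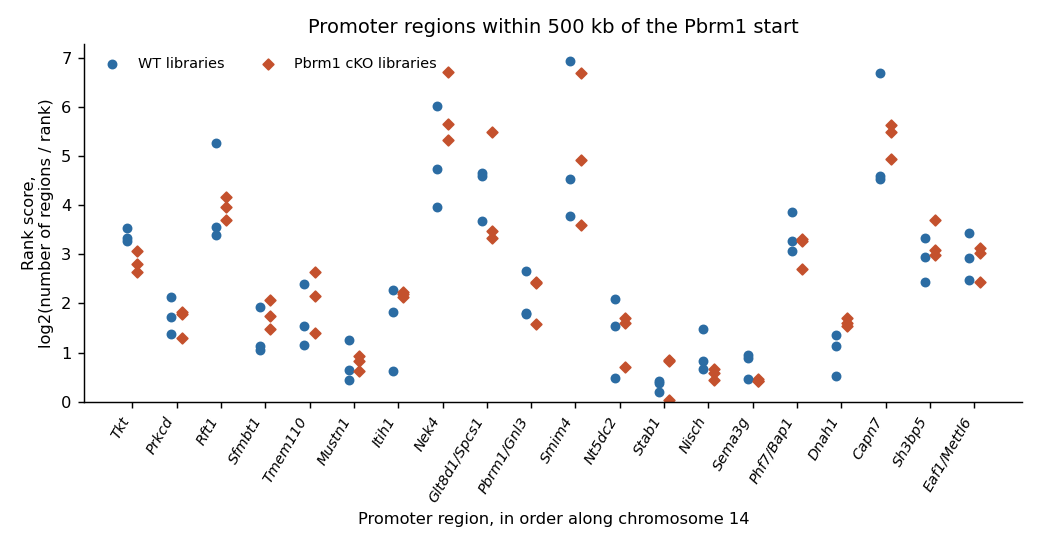
Rank score, log2(number of regions / rank), of the 20 promoter regions, 1 per gene, of genes that start within 500 kb of Pbrm1, in order along the chromosome. Each circle is 1 WT and each diamond 1 Pbrm1 cKO library; the genotypes separate at Tkt (WT higher) and Dnah1 (cKO higher) and overlap at the other promoter regions plotted, including the one shared by Pbrm1 and Gnl3.

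Lists of genes in the window, 6 with 74 genes in all, of which 65 start within the 20 Mb limit, were followed at 1 promoter region each, again the one nearest to a start, and 51 had a region. None of the 51 passed the test on log2 ranks or normal scores. An unadjusted p under 0.05 was given to 6, against 12.4% of all promoter regions. Groups did not overlap at 2 in the higher and 4 in the lower direction, 6 in all, against 3655 of all 21555 promoter regions and 21.5% of regions of any class. The Arhgap22 promoter region described above, which passed on normal scores (limma adjusted p = 0.00632), was not the one counted, and the one counted had a difference of 0.45 (SE 0.40) and overlapping groups. Their median difference was -0.0058. In the list of contraction, calcium and cytoskeleton genes, 17 of 25 were measured. There a region near an annotated transcript start of Cacna1d, an L-type calcium channel gene, scored 0.47, 0.53 and 0.15 in WT libraries. It scored 0.082, 0.047 and 0.054 in cKO libraries, a difference of -0.32 (SE 0.13, limma adjusted p = 0.233). This region (chr14:30045411-30045703) was the first by coordinate of 13 in the gene body, which run to 30480110. Whether it is the main promoter of Cacna1d was not examined. The Cacna1d region was on the WT list alone, so it entered the set only through the genotype in which it was high. Lgals3, which encodes galectin-3, had a difference of 0.77 (SE 0.33) and Plau, the urokinase gene, one of -0.57 (SE 0.35), both without overlap. Vcl, the gene of the adhesion protein vinculin, had the largest difference of that list, -0.94 (SE 0.76), with overlapping groups. Among 13 measured genes of chromatin and nuclear regulators, Apex1, a base excision repair endonuclease, scored 3.82, 3.77 and 4.04 in WT and 4.76, 5.03 and 5.01 in cKO libraries, a difference of 1.05 (SE 0.43, limma adjusted p = 0.238). Wapl, which releases cohesin from DNA, had a difference of 1.51 (SE 0.72) with overlapping groups. Among 10 measured secreted signals and receptors, Gdf10, a ligand of the bone morphogenetic protein family, scored 1.13, 0.38 and 1.26 in WT and 0.089, 0.18 and 0.15 in cKO libraries. All its WT values were higher, by 0.78 in the means (SE 0.23, limma adjusted p = 0.127). The Gdf10 region was likewise on the WT list alone, so its direction is not independent of that list. The difference at Bmp4, another ligand of that family, was 0.69 (SE 0.38) with overlapping groups. The nuclear receptor list (3 measured) and the kinase list (7 measured) held no promoter whose groups did not overlap. In the first of them the difference at Rarb was -0.68 (SE 0.37) and that at Thrb, the thyroid hormone receptor beta, 0.50 (SE 0.48). In the second the largest was -1.80 (SE 1.03), at Cdkn3, a cell cycle phosphatase.

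Receptors for prostaglandins, which relax or contract the oviduct, are encoded by Ptgdr (prostaglandin D2) and Ptger2 (prostaglandin E2). The Ptgdr promoter region, on the WT list alone, scored 0.39, 0.45 and 0.034 in WT and 0.029, 0.011 and 0.0067 in cKO libraries, and libraries 1 and 2 had summits of 16 and 15 tags for WT and of 8 and 5 tags for cKO cells. WT library 3 and cKO library 3 had no entry, so the absence of overlap rests on the rank given to an absent entry. The difference was -0.28 (SE 0.12, limma adjusted p = 0.27). A second region (chr14:44865708-44866244), 6333 bp from the nearest Ptgdr start and in an intron of the pseudogene Gm16976, scored 1.50, 0.85 and 1.94 in WT and 0.46, 0.22 and 0.17 in cKO libraries. Its summits held 31, 20 and 20 tags in WT and 17, 12 and 11 tags in cKO cells. Every WT value was higher, with a difference of -1.15 (SE 0.31) that did not pass on log2 ranks (limma adjusted p = 0.106) and did on normal scores (adjusted p = 0.0405). At the Ptger2 promoter the difference was -0.26 (SE 0.17) and the groups overlapped.

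Several long genes held many regions, which share a gene and are not replicates. Of 181 genes with a region in the body, 17 had at least 10. The counts below of regions higher or lower in all cKO libraries stand beside 10.6% higher and 10.9% lower over all regions, and were not tested. Zmiz1, a transcriptional coactivator related to the PIAS proteins, had 23, of which 7 were higher and 3 lower in all cKO libraries, and the 3 with the largest differences were intronic. The first (chr14:25640337-25640924) scored 0.20, 0.28 and 0.32 in WT and 1.95, 1.59 and 1.30 in cKO libraries, a difference of 1.35 (SE 0.29, limma adjusted p = 0.0813). The second (chr14:25505072-25505733) had a difference of 1.42 (SE 0.35) and the third (chr14:25588985-25589980) one of 1.18 (SE 0.32). The promoter of Zmiz1 itself had a difference of -0.19 (SE 0.43) and overlapping groups. In Ptprg, 6 of 16 regions were higher and 1 lower, and in Samd4, an RNA-binding translational repressor, 4 of 18 were higher and none lower.

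Cacna2d3, an auxiliary subunit of voltage-gated calcium channels, had 17 regions, 7 of them lower and none higher in all cKO libraries. The one with the smallest p (chr14:29366373-29366834) scored 0.81, 0.80 and 0.91 in WT and 0.029, 0.098 and 0.054 in cKO libraries, with 22, 20 and 12 tags against 8, 10 and 8. It was on the WT list alone, and of the 166 such regions around Pbrm1 51.2% were lower in all cKO libraries. Its difference was -0.78 (SE 0.17, limma adjusted p = 0.0846). Rarb, the retinoic acid receptor beta, had 11 regions, of which 9 had negative differences, 4 were lower and 1 higher without overlap, and the median was -0.48. The intronic region printed above (chr14:16738575-16738944) scored 1.31, 0.80 and 1.01 in WT and 0.098, 0.063 and 0.062 in cKO libraries, a difference of -0.97 (SE 0.21, limma adjusted p = 0.0835). This Rarb region was also on the WT list alone. Kcnma1, the BK potassium channel of smooth muscle, had 20 regions, 3 higher and 1 lower, and a median of -0.0088. No region of Zmiz1, Ptprg, Samd4, Cacna2d3, Rarb or Kcnma1 passed the test on log2 ranks. On normal scores, where 2.33% of all regions passed, 3 regions of Zmiz1 passed in the higher and 1 in the lower direction. For Ptprg 1 region passed in each direction, and for Samd4 1 in the higher direction. In the lower direction 3 regions of Rarb and 1 of Cacna2d3 passed, and none of Kcnma1 passed in either.

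**Figure D5:**
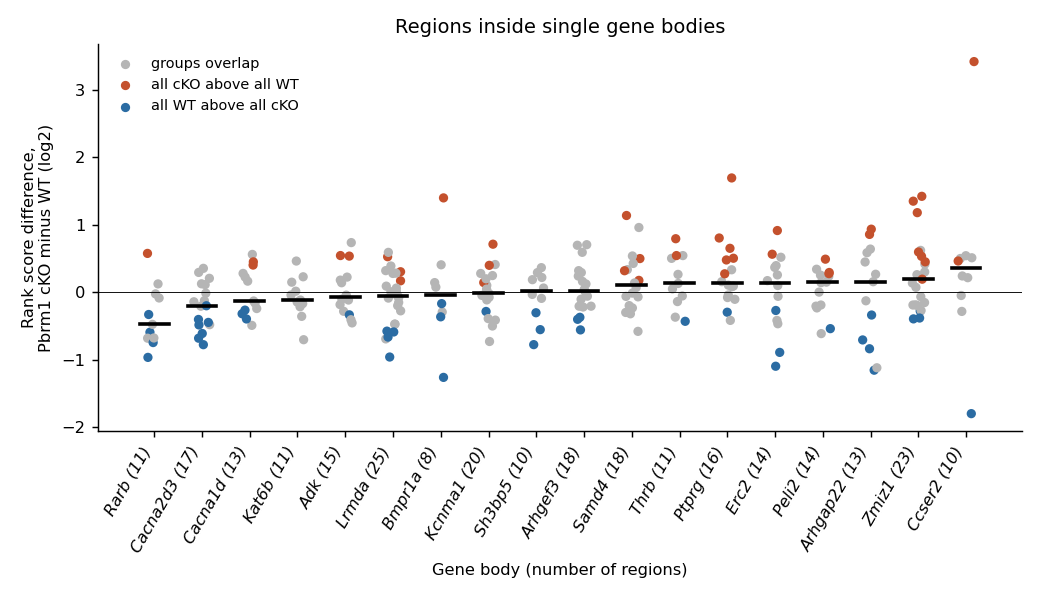
Rank score difference (Pbrm1 cKO minus WT, log2) of the regions inside Bmpr1a and the 17 genes with at least 10 regions, ordered by their median (black line), with the number of regions in brackets. Red points have all cKO libraries above all WT libraries, blue points the reverse, and grey points overlap; the medians run from -0.48 at Rarb to 0.35 at Ccser2.

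Entries found in every library of one genotype and in none of the other were rare. There were 2 such regions for WT (0.204%, against 0.0765% of all regions) and 2 for cKO libraries (0.204%, against 0.181%). With no entry in the other genotype, such a region enters the set through its own genotype's list. These counts are therefore not independent of the lists. The WT ones were an intergenic region nearest to Zcchc24, with 20, 19 and 11 tags, and an exonic region nearest to Anxa8, with 16, 16 and 12 tags. The cKO ones were the Opn4 exon and an intergenic region nearest to 4930503F20Rik, with 29, 20 and 23 tags. A region without an entry is below the threshold of that library's list and is not shown to be closed.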

How the data were processed

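ATAC-Seq was measured in 6 libraries, grouped by their labels as 3 WT and 3 Pbrm1 cKO. The authors deposited MACS2 peak lists, a relaxed list per library (p of 0.01, at most 300000 entries) and a conservative IDR list per genotype (threshold 0.05). The labels name cutadapt, Bowtie2, MACS2 and GRCm38.p5; the study's methods give the ENCODE ATAC-Seq pipeline for other libraries, and whether it made these lists is not given in the sources used here. An entry holds the fold (a ratio to background) and −log10 p and q computed by the authors, and a score column the authors rescaled. Read counts were not used here. The precision is limited by tags per summit, recovered from fold and p (100% of entries matched within 0.1%).

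The 2 IDR lists were merged (overlap of 1 bp or more), and regions were ranked per library by the best −log10 p of overlapping entries. Regions with no entry shared the mean of the lowest ranks. limma 3.58.1 in R 4.3.3 (lmFit, eBayes with trend) was fitted to log2(66679 / rank) over all regions, with Benjamini-Hochberg adjustment and a threshold of 0.05. Genes came from GENCODE M21, copies from minimap2 2.31 (80% of the length at 95% identity) and sequences from the GRCm38 genome of RefSeq. The fit was tested on simulated data. Named regions were those past the threshold, filled to 10 per direction by smallest p, plus regions of Pbrm1, its neighbours, the gene lists, the best-ranked regions and entries exclusive to a genotype. The regions near Ptgdr, in gene bodies, near a Cacna1d transcript start and at other Klhl33, Opn4, Ccser2 and Bmpr1a sites were chosen after their values were seen. The members and lists were chosen with earlier results of these data known. Alternatives changed the scale, the ranked value, the entries, the variance model, the replicate block, the libraries and the window.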

Additional observations from a re-analysis of the deposited data

How the results depend on the processing

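With 3 libraries a group, few tags at weak summits and no read counts, small differences were not detectable. The number of regions past the threshold, 4 on log2 ranks, was 47 on normal scores, 0 when ranked by fold or without the variance trend, 1 with entries in all 6 libraries or regions on both lists (fewer regions tested), and 1 in each fit without 1 library. It was 3 within 10 Mb, 6 within 30 Mb, and 4 with entries at a q of 0.05 or less or with summits in the region. Added after seeing the data, normal scores passed 8, 14 and 39 regions without cKO library 1, 2 or 3, 20, 22 and 49 without WT library 1, 2 or 3, and 45 with the replicate block. The replicate numbers did not pair the libraries (correlations of −0.0029, −0.055 and 0.0091); the replicate block gave 7 regions, 4 higher and 3 lower. The share of regions without overlap of the groups was 17.2% on both lists and 34.6% to 38.6% without 1 library, where 5 libraries overlap less readily than 6. The median difference ran from −0.020 to 0.029 without 1 library. The Pbrm1 promoter difference ran from −0.083 to 0.36 without 1 library, with both signs, and did not pass in any fit. The 20 named regions kept their direction in 260 planned values, of which 27 lost and 19 gained the threshold. They were picked by smallest p and their groups did not overlap, so leaving out 1 library could not reverse their direction. The kept direction is therefore not independent support, and only 4 of the 20 were on both peak lists. Apart from the smaller sets, the cause was not tested.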
